A study of Danio rerio with 18 samples.

Results

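The leukocyte response minus the keratinocyte response was the contrast described here. For each gene it was the mean of the V12 minus Ctrl log2 differences in the Lyz and Mpeg libraries, minus the V12 minus Ctrl log2 difference in the Krt libraries. A positive value means that the gene was higher, relative to Ctrl, in leukocytes than in the keratinocytes that carried the oncogene, and a negative value means the reverse. The contrast used 17 of the 18 libraries, 11 of them from Lyz and Mpeg larvae and 6 from Krt larvae, because Mpeg Ctrl replicate 3 held only 16990 counts. Every zebrafish gene that passed the filter on low counts was a member, 16011 genes in all.

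The libraries were translating ribosome affinity purifications (TRAP) from zebrafish larvae at 3 dpf, with 50 larvae pooled for each library and each replicate number marking one batch. In V12 larvae the keratinocytes expressed oncogenic HRasG12V from pTol2-krt4-RFP-HRasG12V, and in Ctrl larvae they expressed HRas from pTol2-krt4-RFP-HRas, so that an HRas transgene under the krt4 promoter was present in both. Lyz libraries came from Tg(LyzC:EGFP-L10a), whose neutrophils carry the tagged ribosomal protein (Lyz V12, n = 3, and Lyz Ctrl, n = 3). Mpeg libraries came from Tg(mpeg1:EGFP-L10a), whose macrophages carry it (Mpeg V12, n = 3, and Mpeg Ctrl, n = 2 after the exclusion). Krt libraries came from wild type larvae injected with the HRas plasmid together with pTol2-krt4-GFP-L10a (Krt V12, n = 3, and Krt Ctrl, n = 3). Plasmid injection gives mosaic expression, and each library pools many larvae, so a library holds no information on single animals or single cells. The krt4 promoter was used to express the oncogene in keratinocytes. Whether leukocytes also carried the injected plasmid was not analysed here. A response in Lyz or Mpeg libraries is a difference in RNA pulled down from leukocytes that shared a larva with HRasG12V keratinocytes, together with any RNA of other cells carried over, and the same holds for RNA pulled down from keratinocytes in Krt libraries.

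In TRAP, EGFP fused to the ribosomal protein L10a is made in one cell type, and the RNA held by the tagged ribosomes is pulled down with an antibody to GFP and sequenced. RNA of other cells that sticks to the beads is sequenced as well. RAS is a small GTPase that passes growth factor signals to the RAF, MEK and ERK kinases, and the G12V change keeps it in its active form. Active ERK induces its own inhibitors, among them sprouty, spred and dusp genes. Neutrophils and macrophages are the phagocytes of the larva, and both are known to gather at HRasG12V keratinocytes in zebrafish.

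The 17 libraries held 6206924 to 14781123 expected counts each, of which 72.9% to 94.7% fell on the 10 most abundant features, leaving 385201 to 2577036 counts for all others. The smallest remainders were in Krt V12 replicate 2, Lyz Ctrl replicate 3 and Krt Ctrl replicate 2. Levels below are normalised counts (CPM, counts brought to a common library size by the trimmed mean of M values), given for replicates 1, 2 and 3 in that order. The cell type labels were checked on marker genes. Lysozyme (lyz) was at 2.08 to 46.3 CPM in Lyz libraries, 0 to 2.76 CPM in Mpeg libraries and 0 to 1.13 CPM in Krt libraries. The macrophage chemokine ccl34b.1 was at 6.63 to 32.0 CPM in Mpeg libraries and at most 0.913 CPM in Lyz and Krt libraries. The 40 tested keratinocyte genes summed to 1198 to 3125 CPM in the leukocyte libraries, against 4524 to 7716 CPM in Krt libraries. Keratinocyte RNA was thus present in every leukocyte library. The 2 features named HRAS passed the test in no contrast. HRAS ENSDARG00000005651 was at 8.73, 1.83 and 4.84 CPM in Krt V12 and 3.96, 1.70 and 3.91 CPM in Krt Ctrl, with overlapping groups, and the transgene itself was not analysed here.

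No gene passed the test of the leukocyte minus keratinocyte difference at an adjusted p of 0.05 (edgeR quasi-likelihood test with the batch as a block, Benjamini-Hochberg adjustment over 16011 genes, percent called 0). The smallest adjusted p was 0.0737 and was shared by 5 genes, all with the larger response in keratinocytes. At an unadjusted p under 0.05 the test held 697 genes (4.35% of those tested), 336 with a positive and 361 with a negative value, where 801 would be expected with no difference anywhere. DESeq2 called 6 genes (847 at an unadjusted p under 0.05) and limma-voom called 0 (580 at an unadjusted p under 0.05). Taken alone, the leukocyte mean response held 1 called gene (0.00625%) and the keratinocyte response held 42 (0.262%). The neutrophil response held 24 (0.15%), 8 higher and 16 lower. The macrophage response held 0 by edgeR (484 at an unadjusted p under 0.05, percent called 0), 1 by DESeq2 and 1 by limma-voom.

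Member counts of the lists below are at an unadjusted p under 0.05 unless a gene is said to have passed the test, and they are to be read against the same share over all 16011 genes. The lists were chosen with earlier results of these data known, so their counts and medians are descriptions. In the leukocyte mean response 1007 genes had such a p (6.29%), 624 higher (3.9%) and 383 lower (2.39%). In the keratinocyte response 1158 had it (7.23%), 725 higher (4.53%) and 433 lower (2.7%). In the neutrophil response 1119 had it (6.99%), 627 higher (3.92%) and 492 lower (3.07%), and in the macrophage response 484 (3.02%), 298 higher (1.86%) and 186 lower (1.16%). For the leukocyte minus keratinocyte difference itself the share was 2.1% for positive and 2.25% for negative values. Groups without overlap are also to be read against their share over all genes. V12 lay above Ctrl without overlap in 7.71% in Lyz, 9.58% in Mpeg and 6.75% in Krt libraries. It lay below Ctrl without overlap in 5.1%, 8.98% and 5.02%, in the same order.

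The precision of the 3 quantities differed. Each standard error (SE) given here is the size of the log2 value divided by the square root of its quasi-likelihood F statistic. It is thus an approximate value derived from the test, and is least reliable for genes of low count. The median standard error over all genes was 0.44 for the leukocyte response, 0.63 for the keratinocyte response and 0.77 for their difference, on the log2 scale. A difference of 1 log2 unit was therefore within about 1 standard error for many genes, and a gene of low count could reach a large value in any of them. Over the 16011 genes the difference had a median of 0.02, and the middle 90% of genes lay between -1.52 and 1.65. It was within 0.5 of 0 for 51.9% of all genes and for 77.4% of the 4543 genes that averaged 50 counts or more. Among those 4543 genes the median standard error of the difference was 0.40, 56 genes had a difference of 1 or more and 93 had a difference of -1 or less.

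Leukocyte and keratinocyte responses shared a direction in 57.3% of all genes and in 62.1% of the 4543 genes with 50 counts or more. Across those 4543 genes, which share libraries and are not independent, the leukocyte and keratinocyte responses had a Pearson r of 0.28 and a Spearman rho of 0.34. The neutrophil response alone had an r of 0.15 with the keratinocyte response, the macrophage response had an r of 0.30 with it, and the neutrophil response had an r of 0.12 with the macrophage response.

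**Figure D1:**
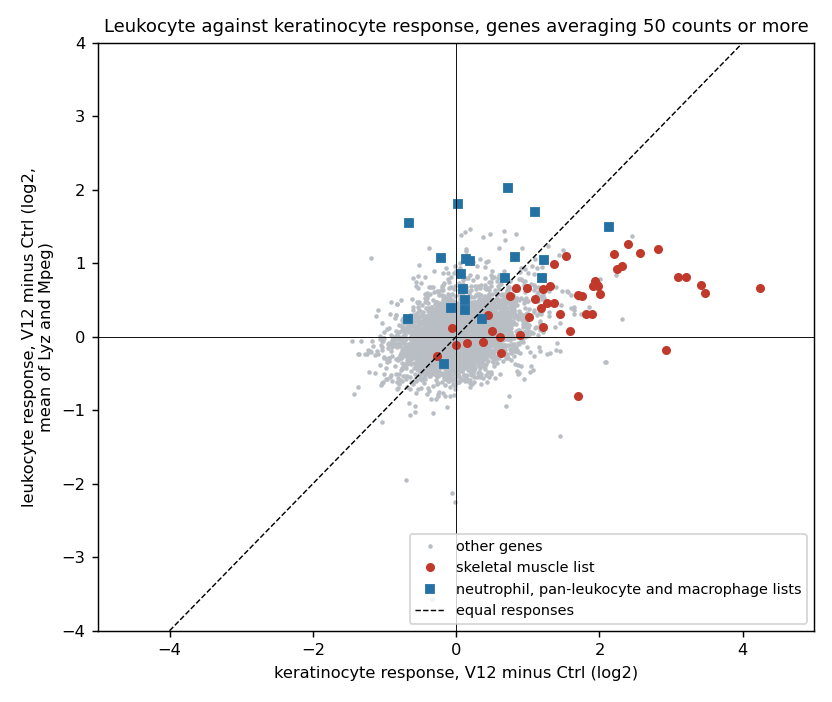
Leukocyte response (mean of the Lyz and Mpeg V12 minus Ctrl log2 differences, vertical axis) against the keratinocyte response (Krt V12 minus Ctrl log2 difference, horizontal axis) for the 4543 genes averaging 50 counts or more, 1 point a gene, with 3 genes outside the axes. Skeletal muscle genes (red) reach 4.25 on the keratinocyte axis while lying mostly below the dashed line of equal responses, and neutrophil, pan-leukocyte and macrophage genes (blue) lie mostly above it.

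The 5 genes with the smallest p for the difference were DES, TNNC1, rasip1, myl10 and myl13, and in each of them every Krt V12 library was above every Krt Ctrl library. Over all genes this separation was seen in 6.75% for Krt V12 above Krt Ctrl. The 5 genes were picked by a contrast that holds the Krt difference. Their separation is thus partly built into the choice and is given as a description. All but rasip1 encode proteins of the muscle fibre or its cytoskeleton, and none of the 5 passed the test of the difference.

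DES (ENSDARG00000058656, 1 of 2 features of that name) encodes desmin, the intermediate filament of muscle. It was at 8.87, 2.62 and 5.31 CPM in Lyz V12 and 2.35, 3.51 and 1.04 CPM in Lyz Ctrl. In Mpeg V12 it was at 3.13, 3.80 and 4.19 CPM, against 2.72 and 5.66 CPM in Mpeg Ctrl replicates 1 and 2. In Krt V12 it was at 34.4, 39.3 and 19.1 CPM, against 2.08, 3.68 and 2.37 CPM in Krt Ctrl. The groups overlapped in both kinds of leukocyte library and were far apart in Krt libraries, while Krt Ctrl was at the level of the leukocyte libraries. The leukocyte response was 0.59 ± 0.32 (log2 ± SE) and the keratinocyte response 3.48 ± 0.43, and the difference was -2.89 ± 0.53 (unadjusted p = 5.11e-06, adjusted p = 0.0737, edgeR).

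TNNC1 (ENSDARG00000037539), the troponin C of slow and cardiac muscle, was at 18.2, 9.03 and 6.67 CPM in Lyz V12 and 9.50, 9.50 and 4.42 CPM in Lyz Ctrl. It was at 5.16, 8.33 and 2.18 CPM in Mpeg V12 and 1.36 and 4.99 CPM in Mpeg Ctrl. Krt V12 held 18.5, 20.7 and 17.8 CPM, against 1.46, 2.55 and 1.54 CPM in Krt Ctrl. Here the level in Lyz libraries of either kind was above that in Krt Ctrl, and the Krt V12 libraries came up to the level of Lyz V12 replicate 1. The difference was -2.71 ± 0.52 (adjusted p = 0.0737, edgeR).

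The myosin light chain genes myl10 and myl13 had the same shape. For myl10 (ENSDARG00000062592) Krt V12 held 13.4, 14.6 and 15.2 CPM, against 1.46, 0.283 and 0.558 CPM in Krt Ctrl. The leukocyte response of myl10 was 0.67 ± 0.37 and the keratinocyte response 4.25 ± 0.61, the highest of the 42 genes called in keratinocytes. For myl13 (ENSDARG00000042245) Krt V12 held 22.8, 24.0 and 19.8 CPM and Krt Ctrl 3.96, 3.68 and 0.977 CPM, and the difference was -2.39 ± 0.49. Both had an adjusted p of 0.0737 for the difference (edgeR). In Lyz libraries the groups overlapped for both genes, with Lyz V12 replicate 1 at 10.2 CPM of myl10 and 17.6 CPM of myl13.

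Rasip1 (ENSDARG00000074829), a RAS-interacting protein needed for blood vessel lumens in mice, was the 1 gene of the 5 with no link to the muscle fibre. It was at 1.72, 1.26 and 1.61 CPM in Lyz V12 and 1.33, 1.46 and 0 CPM in Lyz Ctrl, and at 0.552, 0.389 and 0.587 CPM in Mpeg V12 and 1.66 and 1.91 CPM in Mpeg Ctrl. Krt V12 held 11.4, 8.22 and 6.46 CPM, against 0, 0.849 and 0.838 CPM in Krt Ctrl. Every Mpeg V12 library was below both Mpeg Ctrl libraries, at 6, 9 and 7 counts against 11 and 23. Such a separation was seen in 8.98% of all genes in Mpeg libraries, and the macrophage response of rasip1 did not pass the test. The difference was -4.44 ± 0.89, at a mean of 20.9 counts a library.

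**Figure D2:**
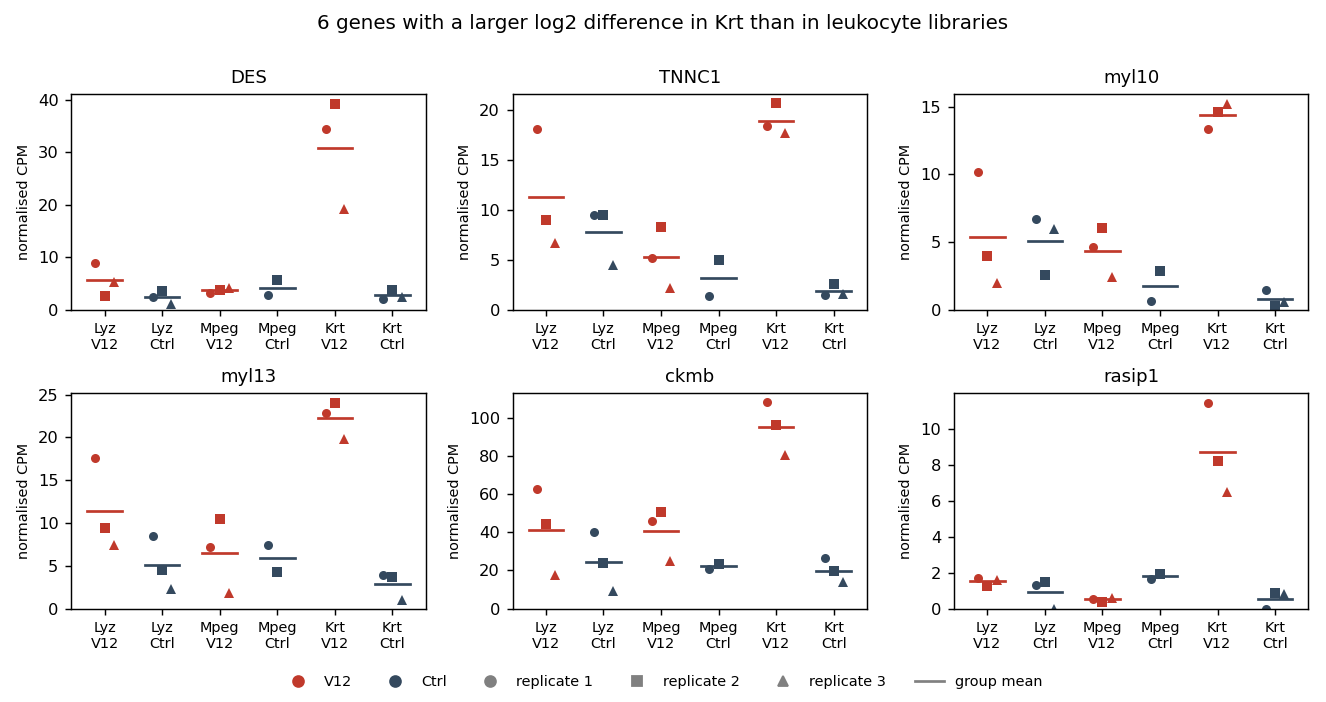
Normalised CPM (vertical axis, linear from 0) of 6 genes in each of the 17 libraries, by cell type and construct, with the group mean as a bar. In all 6 the 3 Krt V12 points lie above the 3 Krt Ctrl points, and the leukocyte groups are closer together or overlap, with ckmb at 80.6 to 108 CPM in Krt V12 against 14.1 to 26.3 CPM in Krt Ctrl.

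Skeletal muscle genes as a list had a negative median difference in all 32 settings (-1.31 to -0.73), and had 34 of 72 tested members at an unadjusted p under 0.05, all negative. Of 74 names on the list 69 matched features, and 72 of the 77 features passed the filter on low counts. The median response of the 72 was 0.41 in leukocytes (0.15 in Lyz and 0.60 in Mpeg libraries) and 1.55 in keratinocytes, against 0.03 and 0.01 for all genes tested, and the median difference was -1.13, against 0.02 for all genes. In the keratinocyte response 22 of the 72 passed the test, all higher, and in the leukocyte response 1 did. At an unadjusted p under 0.05 the keratinocyte response held 53 higher members (4.53% over all genes) and 0 lower. The leukocyte response held 23 higher (3.9% over all genes) and 0 lower. By cell type, 12 were higher and 3 lower in Lyz libraries, and 20 higher and 0 lower in Mpeg libraries. Over all genes the higher share was 3.92% in Lyz and 1.86% in Mpeg libraries. The Krt groups did not overlap in 53 of 72 members, all with V12 above, while V12 was above Ctrl without overlap in 0 of 72 in Lyz libraries (7.71% over all genes) and in 14 of 72 in Mpeg libraries (9.58% over all genes).

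The 1 gene that passed in the leukocyte response belonged to this list as well. It was ckma, a muscle creatine kinase, chosen here after its values were seen. It was at 50.1, 32.9 and 17.2 CPM in Lyz V12 and 20.5, 20.8 and 5.20 CPM in Lyz Ctrl, and at 47.6, 50.6 and 23.7 CPM in Mpeg V12 and 24.2 and 21.6 CPM in Mpeg Ctrl. In Krt libraries it was at 90.9, 81.6 and 50.5 CPM with V12 and 18.5, 17.5 and 11.7 CPM with Ctrl. The V12 library was above the Ctrl library of its own batch in all 8 pairs, though the Lyz and the Mpeg groups overlapped. The leukocyte response was 1.12 ± 0.19 (adjusted p = 0.0310, edgeR), the keratinocyte response 2.201 ± 0.26 (adjusted p = 1.27e-05, edgeR) and the difference -1.08 ± 0.32 (unadjusted p = 0.00182). Its paralog ckmb had a leukocyte response of 0.96 ± 0.21 and a keratinocyte response of 2.31 ± 0.28.

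The muscle list was not uniform. Its most abundant members, the 2 features named TTN that encode the giant sarcomere protein titin, had keratinocyte responses of -0.00 ± 0.30 and 0.14 ± 0.29 and leukocyte responses of -0.11 ± 0.23 and -0.08 ± 0.22. Alpha-actinin actn3b, by contrast, was at 31.1, 50.8 and 22.2 CPM in Krt V12 and 14.6, 11.6 and 4.89 CPM in Krt Ctrl, with a leukocyte response of 0.31 ± 0.23 and a keratinocyte response of 1.81 ± 0.31 (adjusted p = 0.00146, edgeR). The summed level of the 72 members was 5074, 2747 and 1450 CPM in Lyz V12 and 3698, 3624 and 1202 CPM in Lyz Ctrl. It was 4436, 3187 and 3486 CPM in Mpeg V12 and 3399 and 2628 CPM in Mpeg Ctrl, and 5406, 6469 and 5236 CPM in Krt V12 against 3608, 3066 and 2698 CPM in Krt Ctrl. Muscle RNA was present in Ctrl libraries of all 3 cell types, lowest in Lyz Ctrl replicate 3, no member of the list was at 0 throughout any of them, and none of the 3 tags is driven by a muscle promoter. The part that muscle RNA carried over from other cells plays in the difference was not tested. In bulk libraries a change in the number of contributing cells and a change in RNA per cell cannot be told apart.

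**Figure D3:**
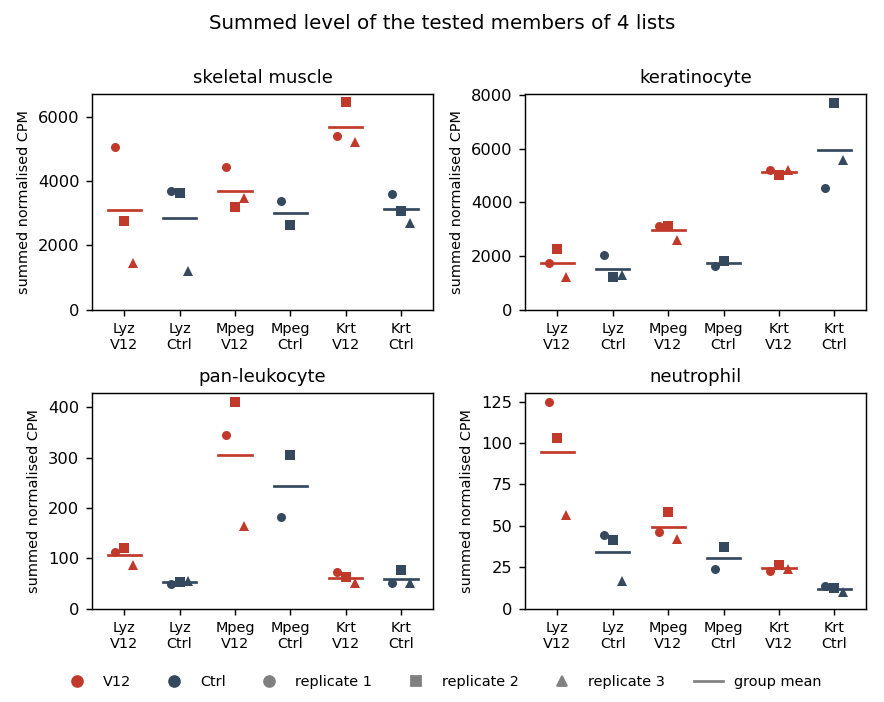
Summed normalised CPM (vertical axis, linear from 0) of the tested members of 4 lists in each of the 17 libraries, with the group mean as a bar. Skeletal muscle genes sum to 5236 to 6469 CPM in Krt V12, above the 2698 to 3608 CPM of Krt Ctrl, and pan-leukocyte genes sum to 86.9 to 120 CPM in Lyz V12, above the 49.6 to 55.4 CPM of Lyz Ctrl.

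The 42 genes that passed in keratinocytes were then read in leukocytes. These genes were picked by their keratinocyte values, so a smaller leukocyte value is partly built into the choice and their differences are given as a description. Of the 42, 41 were higher and 1 lower in Krt V12, the median keratinocyte response was 2.15 and the median leukocyte response 0.60 (0.53 in Lyz and 0.73 in Mpeg libraries). In leukocytes 38 of the 42 had the same direction, 22 had an unadjusted p under 0.05 and 1 (ckma) passed the test, and in all 42 the leukocyte value was the smaller. The 42 included 22 members of the muscle list. They also included genes of striated muscle that were not among the features of the list. Among these were both features named MYL11, tnnt2d, tnnt2e and MYOM2.

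The keratinocyte calls also included genes outside the muscle list, some of them expressed in muscle as well. Tropomyosin tpm4a was at 29.2, 27.1 and 20.2 CPM in Krt V12 and 8.34, 2.83 and 5.72 CPM in Krt Ctrl, with Lyz Ctrl replicate 2 the highest of all libraries at 45.9 CPM. Its leukocyte response was -0.34 ± 0.32 and its keratinocyte response 2.098 ± 0.44 (adjusted p = 0.0210, edgeR). A feature named FLNC (ENSDARG00000018820), for filamin C, the actin crosslinker of striated muscle, had a leukocyte response of -0.19 ± 0.23 and a keratinocyte response of 1.39 ± 0.31 (adjusted p = 0.0376, edgeR). The alpha tubulin tuba8l3 was at 16.76, 33.2 and 17.4 CPM in Krt V12 and 2.08, 6.22 and 4.89 CPM in Krt Ctrl, and again highest of the leukocyte libraries in Lyz Ctrl replicate 2 (31.6 CPM), with a leukocyte response of 0.24 ± 0.29 and a keratinocyte response of 2.32 ± 0.42. Given after their values were seen, moesin (MSN), which ties actin to the membrane, had responses of 0.40 ± 0.21 and 1.64 ± 0.29, and palladin (PALLD) had 0.31 ± 0.24 and 1.75 ± 0.34, in leukocytes and keratinocytes in that order.

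A further 3 keratinocyte calls, given after their values were seen, are a caveolar, a chaperone and a cytoskeletal gene. A feature named CAVIN1 (ENSDARG00000076411), for a caveolar coat protein, was at 14.8, 16.7 and 9.40 CPM in Krt V12. In Krt Ctrl it was at 2.29, 0 and 2.09 CPM, and its leukocyte response was 0.43 ± 0.45. That mean hides a separation in Mpeg libraries, at 3.41, 2.63 and 3.77 CPM with V12 and 1.66 and 1.58 CPM with Ctrl. The Lyz groups overlapped. Another, more abundant feature named CAVIN1 (ENSDARG00000059362) had a keratinocyte response of -0.17 ± 0.26 and a difference of 0.53 ± 0.33. Its groups overlapped in every cell type. The small heat shock gene HSPB1 was at 4.23, 4.87 and 5.54 CPM in Krt V12 and 0.208, 0 and 0.838 CPM in Krt Ctrl, and its leukocyte response was 0.98 ± 0.55. Wipf1b, named for a partner of the WASP actin regulator, was at 1.13, 1.22 and 1.54 CPM in Krt V12 and 0, 0 and 0.140 CPM in Krt Ctrl. In macrophage libraries wipf1b stood at 12.2, 12.6 and 7.88 CPM with V12 and 8.93 and 10.7 CPM with Ctrl, so that its keratinocyte call rested on a level far below that of Mpeg libraries. The 1 gene called lower in keratinocytes, si:dkey-222e15.4, was at 0.282, 0 and 1.54 CPM in Krt V12 and 3.96, 7.64 and 3.21 CPM in Krt Ctrl, with a leukocyte response of -0.48 ± 0.43.

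To describe all genes and not the calls alone, each gene was placed in a response class by unadjusted p. A leukocyte only gene had a leukocyte response of at least 1 log2 unit (p under 0.05), a keratinocyte response under 0.5 in size and a p under 0.05 for the difference, and a keratinocyte only gene was the mirror image. There were 26 leukocyte only genes, 19 with a higher (0.119%) and 7 with a lower (0.0437%) leukocyte response. There were 226 keratinocyte only genes, 143 higher (0.893%) and 83 lower (0.518%). A further 13 genes had p under 0.05 in both and opposite signs, and 159 had p under 0.05 in both and the same sign, 126 of them higher (0.787%) and 33 lower (0.206%). The larger standard error of the keratinocyte response makes a size of 1 log2 unit easier to reach there by noise, so the 2 counts are not on equal terms, and unadjusted p do not limit false calls.

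Among the 143 keratinocyte only genes with a higher response, 42 averaged 50 counts or more, 13 were on the muscle list, and 35 had a Krt V12 or Krt Ctrl group in which no library exceeded 3 counts. Their median response was -0.03 in leukocytes and 1.77 in keratinocytes. Both sizes are built into the class, by its limits of 0.5 in leukocytes and 1 in keratinocytes. The Lyz and Mpeg responses had the same sign in 54 of the 143, and the median was -0.05 in Lyz and 0.04 in Mpeg libraries. A small leukocyte mean can thus hold opposite responses, as for actc1c, at -1.80 in Lyz and 1.12 in Mpeg libraries. The class does not show that a gene was unchanged in each leukocyte. By the same limits, the 83 lower genes had a median of 0.14 in leukocytes and -1.58 in keratinocytes. Of these rybpa, a Polycomb-associated gene, was at 1.83, 0.609 and 2.11 CPM in Krt V12 and 6.46, 8.20 and 2.79 CPM in Krt Ctrl, against 3.44 to 7.78 CPM in all leukocyte libraries. The Krt groups of rybpa did not overlap, and its difference was 1.65 ± 0.54. CACNB4, a calcium channel subunit, and PARP6, an ADP-ribosyltransferase, had differences of 3.24 ± 1.07 and 1.46 ± 0.49, with overlapping Krt groups.

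Genes of blood vessels also had a negative median difference. Of 34 endothelial features 22 were tested, and their median response was 0.17 in leukocytes and 1.47 in keratinocytes, with a median difference of -1.07 and 4 members at an unadjusted p under 0.05, all negative. They were rasip1, she, the lymphatic receptor gene FLT4 and the transcription repressor gene BCL6B. Because the list was chosen with earlier results of these data known, this count and the medians are given as a description. BCL6B had a leukocyte response of 0.43 and a keratinocyte response of 2.93, and she had 0.18 and 1.58. In the keratinocyte response rasip1 alone of the 22 passed the test. Over 32 settings the median difference ran from -1.86 to 0.0001 and the keratinocyte median from -0.08 to 1.70. The summed level was 45.4 to 56.2 CPM in Lyz V12 and 32.5 to 45.9 CPM in Lyz Ctrl, 36.2 to 61.0 CPM in Mpeg V12 and 45.9 to 53.6 CPM in Mpeg Ctrl, and 72.2 to 102 CPM in Krt V12 against 37.9 to 50.4 CPM in Krt Ctrl, where the groups did not overlap. Both features named NOTCH1, the only members averaging 50 counts or more, had differences of -0.11 ± 0.42 and 0.07 ± 0.38. The negative median thus rested on members below 50 counts, and the part that count level plays was not tested.

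The RAS-MAPK list held feedback inhibitors and targets of ERK signalling. Of its 40 tested members, 29 were positive in leukocytes and 32 in keratinocytes, with medians of 0.19 and 0.43 and a median difference of -0.35. In keratinocytes 9 of the 40 had an unadjusted p under 0.05, all higher, against 1 higher and 1 lower in leukocytes, and none passed the test in either. A total of 3 members had an unadjusted p under 0.05 for the difference. SPRY4, a sprouty inhibitor of RAS signalling, had a leukocyte response of 0.52 and a keratinocyte response of 2.05, and PHLDA2, of a family known from growth control, had 0.15 and 1.91. PHLDA1 was the remaining one and the 1 member in the class of opposite direction. It was at 1.38, 1.46 and 2.099 CPM in Lyz V12 and 2.25, 2.85 and 7.28 CPM in Lyz Ctrl, at 0.460, 1.08 and 1.59 CPM in Mpeg V12 and 1.97 and 2.25 CPM in Mpeg Ctrl, and at 3.80, 3.04 and 1.12 CPM in Krt V12 and 0.625, 0 and 1.40 CPM in Krt Ctrl. V12 was below Ctrl without overlap in both leukocytes, and the Krt groups overlapped through replicate 3. Among the most abundant members, CCND1 and SPRED2 had differences of 0.36 ± 0.35 and -0.54 ± 0.31.

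Housekeeping lists leaned the same way by smaller amounts. The 84 nuclear genes of oxidative phosphorylation had a median response of 0.26 in leukocytes and 0.61 in keratinocytes and a median difference of -0.42, with 6 members at an unadjusted p under 0.05, all negative. Among them NDUFA8, of complex I, had responses of 0.08 in leukocytes and 2.01 in keratinocytes, and atp5if1a, an inhibitor of the ATP synthase, had 0.19 and 1.17. The ATP synthase subunit gene ATP5F1A was at 48.7 to 86.8 CPM in Krt V12 and 37.7 to 54.4 CPM in Krt Ctrl, with a difference of -0.61 ± 0.29. The 13 protein genes of the mitochondrial genome had a median difference of -0.12, and it was 0.16 when libraries were scaled by total counts alone. The 77 genes of cytosolic ribosomal proteins had medians of 0.24 in leukocytes and 0.49 in keratinocytes, with 66 of 77 differences negative and 1 at an unadjusted p under 0.05 (RPS26). For the 41 heat shock and chaperone genes the medians were 0.10 and 0.39, and 5 had an unadjusted p under 0.05 for the difference, all negative. Besides HSPB1 and its partner BAG3 these were CCT2, CCT5 and CCT7, subunits of the chaperonin that folds actin and tubulin, with differences of -0.89, -1.19 and -0.79.

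On the leukocyte side, the smallest p among positive differences belonged to genes of low count or with uneven support. The first 5 were zgc:112980, CHCHD7, si:ch211-136m16.8, afp4 and lgals9l1, with adjusted p from 0.795 to 0.828 (edgeR). Of these, zgc:112980, CHCHD7 and afp4 averaged 4.53 to 5.94 counts a library. Lgals9l1, a galectin by name, was at 1.12, 0.454 and 0.370 CPM in Lyz V12 and 0 CPM in every Lyz Ctrl library, while Mpeg libraries held 9.94, 15.1 and 4.28 CPM with V12 and 3.33 and 6.91 CPM with Ctrl. Si:ch211-136m16.8 had the firmest support, at 7.32, 8.78 and 7.90 CPM in Lyz V12 and 3.27, 2.12 and 1.3003 CPM in Lyz Ctrl, and at 5.63, 3.65 and 4.70 CPM in Krt V12 and 6.25, 7.64 and 5.30 CPM in Krt Ctrl. Its groups did not overlap in Lyz libraries and overlapped in Mpeg and Krt libraries. The leukocyte response was 1.21 ± 0.27, the keratinocyte response -0.38 ± 0.37 and the difference 1.58 ± 0.45. It passed the test in neutrophils (1.82, adjusted p = 0.0296, edgeR).

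The 26 leukocyte only genes held 1 member each of the NF-kB, Jak-Stat and cytokine, antioxidant and neutrophil lists, 2 each of the keratinocyte and liver, gut and pancreas lists, and 0 of the pan-leukocyte and macrophage lists. The glutathione transferase gstp1.2, which conjugates reactive compounds to glutathione, was at 11.3, 10.9 and 4.82 CPM in Lyz V12 and 3.98, 3.44 and 2.34 CPM in Lyz Ctrl. It was at 10.5, 16.1 and 4.45 CPM in Mpeg V12 and 3.03 and 6.33 CPM in Mpeg Ctrl, and at 11.8, 7.61 and 5.61 CPM in Krt V12 and 10.004, 7.35 and 6.14 CPM in Krt Ctrl. The Krt groups overlapped throughout, and the Lyz groups did not overlap. The leukocyte response was 1.39 ± 0.27 and the keratinocyte response 0.07 ± 0.34, a difference of 1.32 ± 0.43 (unadjusted p = 0.00465).

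Nfkbiaa, an inhibitor of NF-kB that NF-kB itself induces, was at 1.64, 2.47 and 2.84 CPM in Lyz V12 and 0.102, 1.17 and 1.04 CPM in Lyz Ctrl. In Mpeg V12 it was at 2.21, 7.13 and 5.54 CPM, against 1.66 and 3.91 CPM in Mpeg Ctrl, with overlap. In Krt libraries it was at 4.08, 9.13 and 6.11 CPM with V12 and 5.84, 9.90 and 6.56 CPM with Ctrl. The leukocyte response was 1.24 ± 0.35 and the keratinocyte response -0.25 ± 0.41. NCF1, the p47phox subunit of the phagocyte NADPH oxidase, was given after its values were seen. It was at 6.63, 4.64 and 3.58 CPM in Lyz V12 and 1.74, 0.585 and 0.520 CPM in Lyz Ctrl, at 10.7, 11.5 and 7.21 CPM in Mpeg V12 and 3.63 and 7.82 CPM in Mpeg Ctrl, and at or under 1.52 CPM in all Krt libraries. NCF1 passed the test in the neutrophil response (2.396, adjusted p = 0.0359, edgeR), and its leukocyte response was 1.70 ± 0.36. Pycard, the inflammasome adaptor, also given after its values were seen, was at 1.21, 1.97 and 0.741 CPM in Lyz V12 and 0.510, 0.146 and 0.260 CPM in Lyz Ctrl. In Mpeg V12 pycard was at 6.26, 8.98 and 1.34 CPM, against 2.87 and 3.58 CPM in Mpeg Ctrl, so that those groups overlapped. It had a leukocyte response of 1.56 ± 0.45 and a keratinocyte response of 0.03 ± 0.50. In all 19 genes the Lyz and Mpeg responses were both positive, which is partly built into a choice by their mean. In 2 of the 19 each had an unadjusted p under 0.05.

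**Figure D4:**
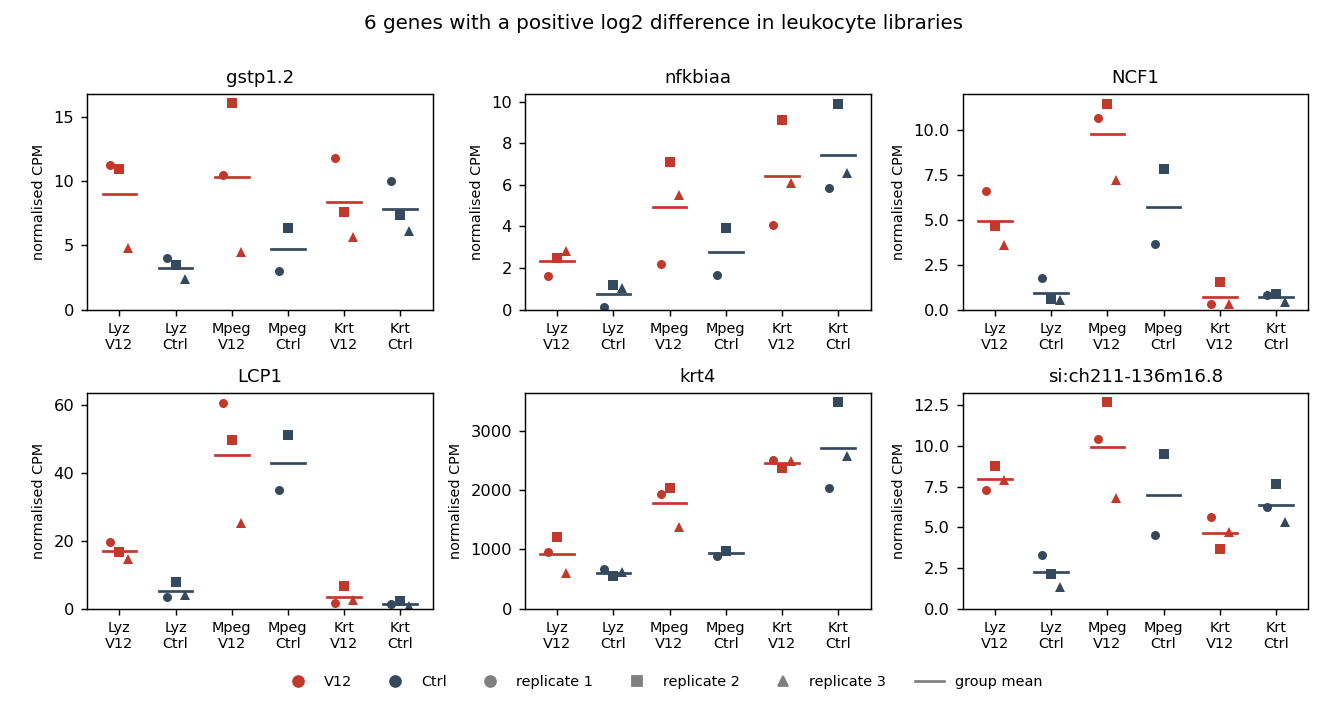
Normalised CPM (vertical axis, linear from 0) of 6 genes in each of the 17 libraries, by cell type and construct, with the group mean as a bar. For gstp1.2, nfkbiaa, NCF1, LCP1 and si:ch211-136m16.8 the 3 Lyz V12 points lie above the 3 Lyz Ctrl points, and for krt4 the 3 Mpeg V12 points, at 1380 to 2028 CPM, lie above the 893 and 968 CPM of Mpeg Ctrl.

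Of the 7 leukocyte only genes with a lower response, rn7sk and a feature named EEF1A1 rested largely on a single library. A feature named EEF1A1 (ENSDARG00000069951, a translation elongation factor, 1 of 2 of that name, so that reads may be split between near-identical copies) was at 344 CPM in Lyz Ctrl replicate 2, which held 94.4% of its summed CPM, and at 0.123 to 3.64 CPM in the other 16 libraries. Without that library its difference was -1.19 ± 1.00. The other feature of that name (ENSDARG00000039502) was also in this class, with responses of -3.77 in Lyz and -0.49 in Mpeg libraries. Its levels by library are not given here. The small nuclear RNA rn7sk, which holds back transcription elongation, was at 1210 CPM in Lyz Ctrl replicate 2 and at 12.6 to 91.7 CPM elsewhere, and its difference was -0.33 ± 0.36 without that library against -2.22 ± 0.94 with it. The NMDA receptor subunit GRIN2B (1 of 2 features) was spread more evenly, at 1.98, 2.27 and 5.06 CPM in Lyz V12 and 3.98, 4.24 and 17.2 CPM in Lyz Ctrl, with all 3 Mpeg V12 libraries below both Mpeg Ctrl libraries and a leukocyte response of -1.45 ± 0.31.

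The 3 leukocyte marker lists differed from one another in their median difference, which was 0.80 for pan-leukocyte, 0.27 for neutrophil and 0.03 for macrophage genes, against 0.58 for lens genes. The 22 tested pan-leukocyte genes had a median response of 0.94 in leukocytes and 0.13 in keratinocytes and a median difference of 0.80, with 18 of 22 positive, against 51.2% positive over all genes. For the difference 1 of the 22 had an unadjusted p under 0.05 (4.5%), with a positive value, against 4.35% over all genes. In the leukocyte response 11 of the 22 had such a p, all higher. In the neutrophil response it was 12 and in the macrophage response 3, again all higher. In the neutrophil response 3 passed the test, all higher. They were the actin bundler L-plastin (LCP1, 1.81, adjusted p = 0.00893), the leukocyte myosin MYO1F (2.80, adjusted p = 0.0135) and fcer1gl, named for the Fc receptor gamma chain (2.92, adjusted p = 0.0404, all by edgeR). LCP1 was at 19.8, 16.7 and 14.6 CPM in Lyz V12 and 3.47, 7.82 and 4.16 CPM in Lyz Ctrl. In Krt libraries LCP1 was at 1.55, 6.70 and 2.46 CPM with V12 and 1.25, 2.26 and 0.838 CPM with Ctrl, so its keratinocyte response, 1.22 ± 0.45, was as large as its leukocyte response of 1.04 ± 0.24.

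The 18 tested neutrophil genes had a positive leukocyte response in 18 of 18, with a median of 1.27 (1.52 in Lyz and 0.92 in Mpeg libraries), and a median of 0.76 in keratinocytes. Lyz was at 45.4, 46.3 and 17.04 CPM in Lyz V12 and 14.7, 14.3 and 2.08 CPM in Lyz Ctrl, and it passed the test in neutrophils (1.94, adjusted p = 0.0378, edgeR). At a far lower level it was also above in Krt V12, at 1.13, 0.913 and 0.982 CPM against 0.417, 0 and 0.279 CPM in Krt Ctrl, and its difference was -0.64 ± 0.97. The summed neutrophil list was 125, 103 and 56.8 CPM in Lyz V12 against 44.4, 41.4 and 16.9 CPM in Lyz Ctrl, and 22.7 to 26.2 CPM in Krt V12 against 9.91 to 13.8 CPM in Krt Ctrl. The Lyz Ctrl sums overlapped those of Mpeg libraries, at 42.2 to 58.6 CPM in Mpeg V12 and 24.1 to 37.1 CPM in Mpeg Ctrl. The 26 macrophage genes had medians of 0.51 in leukocytes and 0.45 in keratinocytes and a median difference of 0.03. Apolipoprotein apoeb, on the macrophage list, had a leukocyte response of 0.80 ± 0.22 and a keratinocyte response of 1.204 ± 0.28. Its levels overlapped, at 21.5 to 51.9 CPM in Mpeg libraries and 9.90 to 45.1 CPM in Krt libraries. More cells of a type and more tagged RNA per cell cannot be told apart in these sums.

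Inflammatory and redox lists had similar medians in both, with single members in either direction. The 26 tested genes of the NF-kB, Jak-Stat and cytokine list had medians of 0.60 in leukocytes and 0.56 in keratinocytes, with 6 and 7 members at an unadjusted p under 0.05, all higher, and a median difference of -0.22 that was 0.06 when libraries were scaled by total counts alone. For the difference 1 member had an unadjusted p under 0.05 in each direction, nfkbiaa and il1b. Interleukin 1 beta (il1b) had 17, 11 and 7 counts in Lyz V12 and 0, 5 and 0 counts in Lyz Ctrl. It had 21, 42 and 35 counts in Mpeg V12 and 1 and 26 counts in Mpeg Ctrl. In Krt V12 it had 17, 20 and 4 counts, against 0 counts in all 3 Krt Ctrl libraries. V12 was thus above Ctrl without overlap in Lyz and Krt libraries, at counts too low to size the difference. Tnfa, cxcl8a and cxcl8b.1 did not pass the filter on low counts.

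The 41 antioxidant genes had medians of 0.55 in leukocytes and 0.53 in keratinocytes and a median difference of -0.06, which turned to 0.24 under scaling by total counts alone. In leukocytes 12 of the 41 had an unadjusted p under 0.05, and in keratinocytes 4, all higher. Thioredoxin reduces disulfides in other proteins. Of its features, txnb (ENSDARG00000044125) was at 7.66, 7.52 and 6.42 CPM in Lyz V12 and 2.86, 2.78 and 0 CPM in Lyz Ctrl, at 5.16, 4.62 and 1.85 CPM in Mpeg V12 and 2.87 and 2.33 CPM in Mpeg Ctrl, and at 32.7, 19.2 and 14.6 CPM in Krt V12 and 3.33, 5.94 and 2.79 CPM in Krt Ctrl. It passed the test in keratinocytes (2.46 ± 0.41, adjusted p = 0.000894) and in neutrophils (1.93, adjusted p = 0.0404, both edgeR), and its leukocyte response was 1.37 ± 0.32. The difference of txnb was -1.09 ± 0.51 (unadjusted p = 0.0411, adjusted p = 1). The feature named TXN (ENSDARG00000031435) had responses of 0.58 ± 0.31 in leukocytes and 1.13 ± 0.44 in keratinocytes.

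Keratinocyte genes themselves had a positive difference. Of 40 tested, 29 differences were positive, with a median of 0.34, and 7 had a positive and 1 a negative difference at an unadjusted p under 0.05. The median response was 0.12 in Lyz, 0.50 in Mpeg and -0.12 in Krt libraries. Krt4, the keratin whose promoter drives the transgenes, was at 947, 1207 and 593 CPM in Lyz V12 and 661, 550 and 612 CPM in Lyz Ctrl, and at 1939, 2028 and 1380 CPM in Mpeg V12 and 893 and 968 CPM in Mpeg Ctrl. In Krt libraries it was at 2508, 2373 and 2487 CPM with V12 and 2032, 3491 and 2580 CPM with Ctrl. The Mpeg groups did not overlap and the others did, and the difference was 0.90 ± 0.35 (unadjusted p = 0.0140). The epithelial S100 genes icn and icn2, both leukocyte only genes, had leukocyte responses of 1.46 and 1.12 and keratinocyte responses of 0.20 and -0.26. The summed keratinocyte list was 2591 to 3125 CPM in Mpeg V12 and 1639 to 1795 CPM in Mpeg Ctrl, without overlap, so keratinocyte RNA moved with the construct in macrophage libraries. Its part in the leukocyte response was not tested.

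Other tissues that the tags should not reach were read in the same way. The 35 lens genes had a median response of 0.50 in leukocytes and -0.11 in keratinocytes and a median difference of 0.58, with 31 of 35 positive and 4 at an unadjusted p under 0.05. Liver, gut and pancreas genes (24 tested) had a median difference of 0.16, and apoa2, an apolipoprotein of the liver, was a leukocyte only gene with responses of 1.16 and 0.13 in leukocytes and keratinocytes. The 47 collagen genes had medians of -0.29 in leukocytes and -0.48 in keratinocytes, and under scaling by total counts alone these were 0.26 and -0.10. The 42 cell cycle genes had a median difference of 0.17, the 16 erythroid genes 0.04 and the 40 neuronal genes -0.03. The abundant members mki67 and cenpe, both markers of dividing cells, had differences of 0.13 ± 0.33 and 0.17 ± 0.31, and col1a1a had 0.52 ± 0.36.

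**Figure D5:**
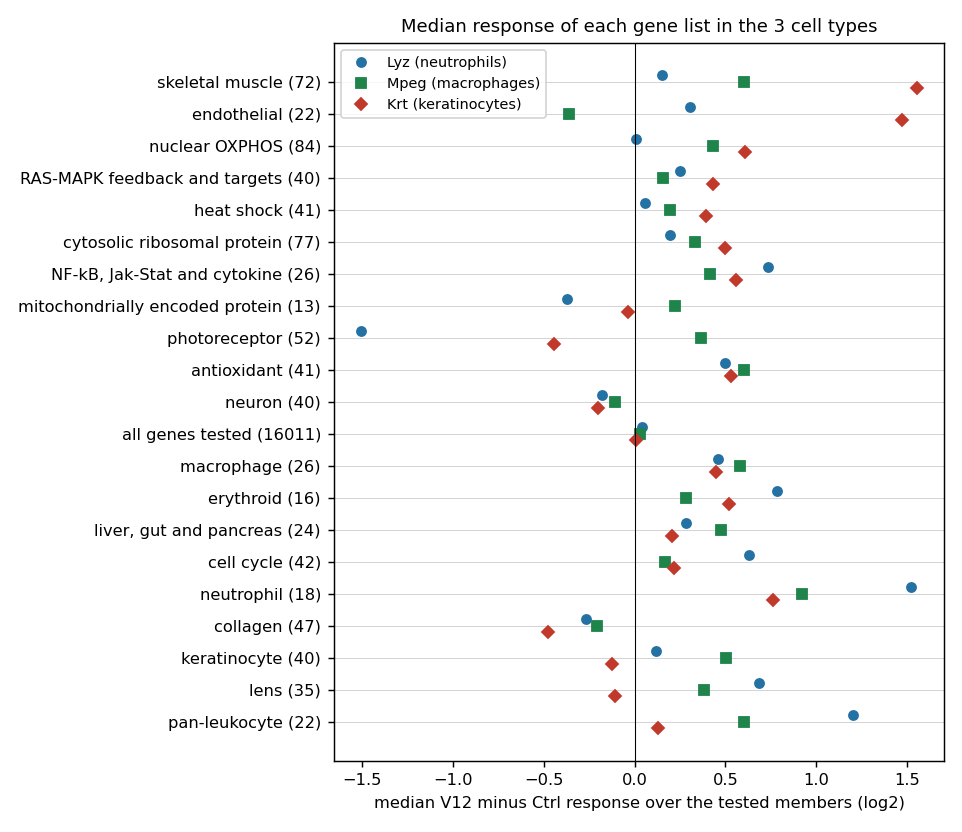
Median V12 minus Ctrl log2 difference over the tested members of each list (number tested in brackets) in Lyz, Mpeg and Krt libraries, with the lists ordered from the most negative to the most positive median leukocyte minus keratinocyte difference. Skeletal muscle and endothelial genes have Krt medians of 1.55 and 1.47 to the right of both leukocytes, and photoreceptor genes have a Lyz median of -1.50 against 0.36 in Mpeg libraries.

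The 13 genes of opposite direction were few and mostly of low count. In 4 the leukocyte response was the higher (0.025%) and in 9 the keratinocyte response was (0.0562%). The Lyz and Mpeg responses had the same sign in all 13, which is partly built into a choice by their mean. TEAD3 (ENSDARG00000063649, 1 of 2 features), a transcription factor of the Hippo pathway, was at 2.67, 1.87 and 1.11 CPM in Lyz V12 and 1.63, 3.58 and 4.94 CPM in Lyz Ctrl, and at 1.93, 1.64 and 2.43 CPM in Mpeg V12 and 4.24 and 2.66 CPM in Mpeg Ctrl. Krt V12 held 8.17, 7.001 and 5.12 CPM, against 1.04, 2.83 and 1.40 CPM in Krt Ctrl. The Mpeg and Krt groups did not overlap and ran in opposite directions, and the difference was -2.75 ± 0.65 (unadjusted p = 0.000175, adjusted p = 0.401, edgeR). LZTS3 (ENSDARG00000098751, 1 of 2 features) was the 1 named gene of this class with no overlap in any of the 3 cell types, below in Lyz V12 and Mpeg V12 and above in Krt V12, with responses of -0.94 ± 0.34 in leukocytes and 1.27 ± 0.54 in keratinocytes.

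The 159 genes of shared direction were picked by an unadjusted p under 0.05 and the same sign in both responses. Their joint movement is thus built into the choice. Larger keratinocyte values are partly built in as well, through the larger standard error there, and the values are given as a description. In the 126 higher genes the median response was 0.81 in leukocytes (0.83 in Lyz and 0.83 in Mpeg libraries) and 1.38 in keratinocytes, the leukocyte value was the larger in 7, and 22 had an unadjusted p under 0.05 for the difference. They included 23 members of the muscle list, 8 of the ribosomal protein list and 4 of the NF-kB, Jak-Stat and cytokine list. In the 33 lower genes the medians were -0.67 in leukocytes and -1.04 in keratinocytes. Collagen VII (col7a1), which anchors the epidermis, was at 19.6, 23.4 and 37.5 CPM in Krt V12 and 66.9, 59.12 and 53.7 CPM in Krt Ctrl, without overlap, and had responses of -0.50 ± 0.22 in leukocytes and -1.14 ± 0.30 in keratinocytes.

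The mean over leukocytes was also split into its neutrophil and macrophage parts. Against the keratinocyte response, the neutrophil response alone differed for 2 genes (0.0125%) and the macrophage response alone for 2 genes (0.0125%), all 4 with a negative value (edgeR, adjusted p). At an unadjusted p under 0.05 the neutrophil minus keratinocyte contrast held 836 genes (5.22%), 383 positive (2.39%) and 453 negative (2.83%), and the macrophage minus keratinocyte contrast held 589 (3.68%). By limma-voom both held 0 calls, and by DESeq2 they held 4 and 3. Myl10 differed for neutrophils (-4.22 ± 0.78, adjusted p = 0.0456), where the Lyz groups overlapped at 1.98 to 10.2 CPM with V12 and 2.56 to 6.74 CPM with Ctrl. DES differed for macrophages (-3.53 ± 0.62, adjusted p = 0.0419), and rasip1 did as well (-5.59 ± 1.04, adjusted p = 0.0498). The other leukocyte had the same sign against keratinocytes without passing, at -2.93 ± 0.85 for myl10 in macrophages. In neutrophils it was -2.25 ± 0.60 for DES and -3.30 ± 0.99 for rasip1. None of these genes passed a test of the neutrophil minus macrophage difference. The other neutrophil call, si:dkeyp-3b12.9 (adjusted p = 0.00477), rested on 3 libraries, with 703 CPM in Krt V12 replicate 2, 298 CPM in Lyz Ctrl replicate 3, 51.8 CPM in Lyz Ctrl replicate 1 and at most 0.566 CPM in any other.

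Neutrophils and macrophages differed from each other in photoreceptor genes. Of the 52 tested, 29 had an unadjusted p under 0.05 in the neutrophil response, all lower, and 6 passed the test, while in the macrophage response 37 of 52 were positive and 1 had an unadjusted p under 0.05. Their medians were -1.50 in Lyz, 0.36 in Mpeg and -0.44 in Krt libraries, and the median leukocyte minus keratinocyte difference was -0.12. The cone transducin genes GNAT2 and gnb3b, given after their values were seen, were the 2 genes (0.0125%) that passed a test of the neutrophil minus macrophage difference (-3.54 ± 0.60, adjusted p = 0.0220, and -3.49 ± 0.64, adjusted p = 0.0329, edgeR). That contrast held 586 genes at an unadjusted p under 0.05 (3.66%), and limma-voom called 0 genes in it and DESeq2 8. GNAT2 was at 4.74, 5.399 and 1.98 CPM in Lyz V12 and 47.8, 10.96 and 15.9 CPM in Lyz Ctrl, and at 9.02, 15.5 and 6.04 CPM in Mpeg V12 and 8.93 and 3.50 CPM in Mpeg Ctrl. In Krt libraries GNAT2 was at 7.18, 6.39 and 9.19 CPM with V12 and 21.7, 13.9 and 10.2 CPM with Ctrl. In the keratinocyte response 7 of the 52 photoreceptor genes had an unadjusted p under 0.05, all lower (2.7% over all genes). The summed list in Krt libraries was 196, 155 and 212 CPM with V12 and 338, 199 and 246 CPM with Ctrl. It was lower with V12 in each batch, though the groups overlapped. The summed photoreceptor list was 176 to 224 CPM in Lyz V12 and 288 to 586 CPM in Lyz Ctrl, so that RNA of an eye cell type moved with the construct in neutrophil libraries, and its part in the leukocyte response was not tested.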

How the data were processed

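Ribosome-bound RNA of zebrafish larvae was measured in 18 libraries, of which 17 were used. The authors deposited RSEM expected counts per gene for each library, and the submitters' processing notes name Bowtie 1.1.1, RSEM 1.2.20 and GRCz10. The deposited TPM and FPKM columns were not used. Expected counts were rounded to whole numbers, filtered with filterByExpr in edgeR 4.0.16 (R 4.3.3), which left 16011 of 31953 features, and scaled by TMM, with factors of 0.456 to 2.45. A quasi-likelihood model held group and batch, with a prior count of 0.125, and p-values were adjusted by Benjamini-Hochberg over all 16011 genes with a threshold of 0.05. DESeq2 1.42.0 and limma-voom (limma 3.58.1) were alternatives, as were other scalings, filters and leaving out each library or batch. Symbols for 26121 features came from a table pairing gene IDs with names, and 4294 features share one, which leaves their split of reads uncertain.

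The labels make each replicate number a batch, so the block pairs libraries. Deviations from group means correlated over 0.1 in 5 of 8 pairs (-0.07 to 0.33, 4543 genes). Replicates were separate pools of 50 larvae.

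Genes were named by rule: per direction the 5 smallest p for the difference where fewer than 5 passed, up to 4 per response class and direction, the called members (at most 6) and the 2 most abundant members of each list, and txn, il1b, cxcl8a, cxcl8b.1 and tnfa. Genes called in single cell types, and others said to be given after their values were seen, were added. Members and lists were chosen with earlier results of these data known. The neutrophil minus macrophage contrast was added later. The model was also run on simulated counts with the same spread for every gene, no batch effect and large changes in well counted genes. That setting does not cover low counts, smaller changes or batches.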

Additional observations from a re-analysis of the deposited data

Results flagged for a closer look

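Responses of 2 cell types differed, by a test of the difference itself (edgeR, adjusted p), for 6 values. Between neutrophils and macrophages these were gnb3b, at -3.49 ± 0.64 (adjusted p = 0.0329), and GNAT2, at -3.54 ± 0.60 (adjusted p = 0.0220), both with a negative neutrophil and a positive macrophage response. Between macrophages and keratinocytes they were DES, at -3.53 ± 0.62 (adjusted p = 0.0419), and rasip1, at -5.59 ± 1.04 (adjusted p = 0.0498). Between neutrophils and keratinocytes they were myl10, at -4.22 ± 0.78 (adjusted p = 0.0456), and si:dkeyp-3b12.9, at -19.01 (adjusted p = 0.00477). For si:dkeyp-3b12.9 a single library, Krt V12 replicate 2, held 66.5% of the summed CPM, and without that library the adjusted p was 1. Limma-voom called 0 genes in each of these 3 contrasts.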

How the results depend on the processing

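Counts of called genes are given in the order leukocyte minus keratinocyte difference, leukocyte mean, keratinocyte, neutrophil minus keratinocyte and macrophage minus keratinocyte, which were 0, 1, 42, 2 and 2. Without the replicate block the difference, leukocyte mean and neutrophil minus keratinocyte counts were 2, 0 and 1, and the shared class held 99 genes. With DESeq2 size factors the leukocyte mean held 4 and neutrophil minus keratinocyte 6. With scaling by library size only, which moved the median of all genes to 0.21, 0.62 and 0.39 in the first 3, the first 4 counts were 1, 24, 27 and 7, and the keratinocyte only and opposite classes held 29 and 4. With every gene of at least 1 count they were 30, 79, 94, 54 and 11, and the leukocyte only and opposite classes held 41 and 30. With a mean of at least 50 counts the last 2 were 0 and 0, and the classes held 4 leukocyte only, 45 keratinocyte only, 1 opposite and 94 shared. By DESeq2 the difference, leukocyte mean and neutrophil minus keratinocyte held 6, 35 and 4, and the opposite class held 24. By limma-voom the leukocyte mean held 7 and the last 2 were 0 and 0, with 15 leukocyte only genes. With all 18 libraries the difference, leukocyte mean and neutrophil minus keratinocyte held 7, 10 and 10. Without the 10 most abundant features the leukocyte mean held 4 and the last 2 held 1 and 0. A limit of 1 for no change gave 40 leukocyte only genes.

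Leaving out 1 library or batch gave 0 to 11 calls for the difference, 0 to 29 for the leukocyte mean, 20 to 52 for keratinocytes, 0 to 22 for neutrophil minus keratinocyte and 0 to 8 for macrophage minus keratinocyte. The classes held 9 to 74 leukocyte only, 91 to 549 keratinocyte only, 4 to 46 opposite and 48 to 185 shared genes. The difference held 11 calls without replicate 1 and 5 without Lyz Ctrl replicate 2. Keratinocyte calls were 20 without Krt Ctrl replicate 2 and 21 without Krt Ctrl replicate 1. Leukocyte only genes were 74 without Mpeg Ctrl replicate 2, and keratinocyte only genes were 508 without Krt V12 replicate 3. In 14 of 31 alternatives the difference held a call, 76 calls of 33 genes, 71 of them lower. DES was called in 10 of 31, at -3.24 to -2.74 in those, and ran from -3.37 to -2.16 over all 31. The cause of these changes was not tested. Without Krt V12 replicate 2 the keratinocyte response of si:dkeyp-3b12.9 was -1.87, against 7.64 with it. The endothelial median difference ran from -1.86 to 0.0001, the last with a mean of at least 50 counts. The shallowest libraries, with 385201 to 408202 counts outside the 10 most abundant features, limit what could be detected in low genes.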
